A study of Mus musculus with 4 samples.

Results

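The genes described here are the 4 platelet-derived growth factor (PDGF) ligands and the 2 PDGF receptors of the mouse, Pdgfa, Pdgfb, Pdgfc, Pdgfd, Pdgfra, and Pdgfrb, which are 6 of the 31053 genes in the count matrices. The rule that chose them names the gene family and uses no measured value, although it was set with earlier results of these data known, and all 6 were detected in every library. PDGFs are secreted dimers that bind receptor tyrosine kinases on neighboring cells. The A and C chains act through PDGFRα, the B chain through either receptor, and the D chain mainly through PDGFRβ. In the fetal testis, Sertoli cells are known as a source of PDGF-A, PDGFRα marks interstitial cells and is needed for Leydig cell development and vascular patterning, and in blood vessels endothelial PDGF-B recruits mural cells that carry PDGFRβ.

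The cells came from 4 XY single-cell RNA-seq libraries, 1 for each condition. In 3 of them the cells were from in vivo gonads of ICR mice at E10.5, E11.5, and E12.5, with dorsal mesenchyme around the gonads included at E10.5 and the mesonephros removed at the later stages. The fourth library, D6, held gonadal somatic cells derived from 1 XY embryonic stem cell (ESC) line, N271S9C, listed as C57BL/6J with the Nr5a1-hCD27a and Sox9-2A-CGFP transgenes (the study's text spells the first Nr5a1-hCD271), and taken after 6 days of aggregate culture. The study's text gives the parent ESCs of this line as from a cross of transgenic C57BL/6J males with females of another strain. The culture passed through epiblast-like cells and used CHIR, BMP4, and EGF, then retinoic acid, SHH, PD, EGF, and BMP4, and then BMP4, FGF9, and IWR1, before cells were enriched by MACS for the surface reporter of Nr5a1, a gene of the genital ridge. The extract protocol of the labels names female gonads, whereas the titles name XY for all 4 libraries.

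Within the gene and mitochondrial limits of the study, the E10.5 library kept 3837 cells with 32508523 unique molecular identifiers (UMIs), E11.5 kept 2101 with 24625441, E12.5 kept 2764 with 34173977, and D6 kept 2285 with 11906360. Median depth ran from 4607 UMIs per cell at D6 to 11926 at E11.5. Kit version 2 was used in vivo and version 3 for D6, so that kit, strain, culture, and sorting cannot be told apart from the ESC origin. Pairs of in vivo libraries shared 7 to 15 cell barcodes and none were shared with D6. Levels are counts-per-million values (CPM), the UMIs of a gene scaled by the total UMIs of all cells in the group, and shares are the percent of cells with at least 1 UMI. These are 3′ UMI counts, which do not scale with transcript length. With 1 library per condition there was no replicate spread and no test was made. The 95% intervals are exact and cover counting error only. A gene was counted as past the threshold at a 2-fold ratio with at least 50 UMIs in the compared groups together.

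Pdgfa (ENSMUSG00000025856, chromosome 5, 138976014 to 138997370, minus strand, GRCm38) and Pdgfra (ENSMUSG00000029231, chromosome 5, 75152292 to 75198215, plus strand) are on the same chromosome. Pdgfb (ENSMUSG00000000489) is on chromosome 15 from 79995874 to 80014977, Pdgfc (ENSMUSG00000028019) on chromosome 3 from 81036416 to 81214040, and Pdgfd (ENSMUSG00000032006) on chromosome 9 from 6168584 to 6378850. The identifier of Pdgfrb is ENSMUSG00000024620.

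Promoter windows of 300 bases, 250 before and 50 after a transcription start, were found in RefSeq on GRCm38.p6 for 4 of the 6 members. The windows of Pdgfa and Pdgfra are shown because these genes took opposite directions between cells gated below as supporting and as interstitial. Of 2 windows of Pdgfa the upstream one is shown. Capitals mark matches to the GC box letters GGGCGG on either strand.
Pdgfa, chr5:138994895-138995194, minus strand: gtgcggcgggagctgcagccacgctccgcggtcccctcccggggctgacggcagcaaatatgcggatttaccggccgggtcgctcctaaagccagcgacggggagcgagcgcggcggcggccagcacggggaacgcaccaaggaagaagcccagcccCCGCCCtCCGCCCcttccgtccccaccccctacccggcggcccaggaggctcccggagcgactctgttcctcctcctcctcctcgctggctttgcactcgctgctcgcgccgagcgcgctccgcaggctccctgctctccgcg
Pdgfra, chr5:75152001-75152300, plus strand: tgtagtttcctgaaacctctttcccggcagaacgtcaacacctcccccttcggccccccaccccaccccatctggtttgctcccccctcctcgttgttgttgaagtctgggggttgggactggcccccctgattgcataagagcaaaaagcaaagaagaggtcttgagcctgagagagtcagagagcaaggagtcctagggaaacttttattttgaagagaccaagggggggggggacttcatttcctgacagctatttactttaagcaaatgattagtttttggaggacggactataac
The Pdgfa window shown had 73.3% GC and 2 matches to the GC box, the other Pdgfa window, from 138994232 to 138994531, had 67.0% GC and 1, and the Pdgfra window had 51.0% GC and none. Over all 32851 windows the median was 52.7% GC, and 35.7% held the GC box letters. None of these windows held on either strand the SOX letters AACAAT, found in 10.7% of all windows, the nuclear receptor letters AGGTCA, found in 16.3%, the GATA letters AGATAA, found in 11.2%, or the TATA letters TATAAA, found in 13.6%. A match is a description of these letters and not a binding site.

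In whole libraries, Pdgfa and Pdgfra were the most abundant ligand and receptor in most conditions, and the members differed in how their levels ran from library to library. Pdgfa, the chain of PDGF-AA, had 22.0 CPM (95% interval 20.4 to 23.7), 65.0 (61.9 to 68.3), 69.6 (66.9 to 72.5), and 56.4 (52.2 to 60.8) in the order E10.5, E11.5, E12.5, D6, which is kept for all series of values below. E10.5 was thus the lowest, at 2.95-fold (2.70 to 3.23) below E11.5, whereas E12.5 was 1.07-fold above E11.5. Pdgfc, another ligand of PDGFRα, had 34.5 CPM (32.5 to 36.6), 48.1 (45.4 to 50.9), 19.9 (18.4 to 21.4), and 27.8 (24.9 to 31.0). It was the most abundant ligand at E10.5 only, and it fell 2.42-fold (2.20 to 2.67) from E11.5 to E12.5. Pdgfb and Pdgfd were scarce. Pdgfb had 0.492 CPM (0.281 to 0.799), 1.95 (1.44 to 2.58), 2.98 (2.43 to 3.62), and 11.9 (10.0 to 14.1), from 16, 48, 102, and 142 UMIs. Pdgfd was at 2.58 CPM (2.06 to 3.20), 5.89 (4.97 to 6.93), 4.54 (3.85 to 5.31), and 7.81 (6.30 to 9.57). Both were highest at D6 and lowest at E10.5, although the intervals of Pdgfd overlapped between D6 and E11.5.

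Of the receptors, Pdgfra, which binds the A, B, and C chains, rose in level from library to library and was highest at D6. Its levels were 38.3 CPM (36.2 to 40.5), 43.5 (41.0 to 46.2), 63.7 (61.1 to 66.4), and 82.9 (77.8 to 88.2), and no step between neighboring conditions reached 2-fold. Pdgfrb, the receptor of mural and mesenchymal cells, was at 10.7 CPM (9.64 to 11.9), 13.6 (12.1 to 15.1), 9.22 (8.23 to 10.3), and 53.4 (49.3 to 57.7). It was within 1.47-fold among successive in vivo stages and stood apart at D6.

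**Figure D1:**
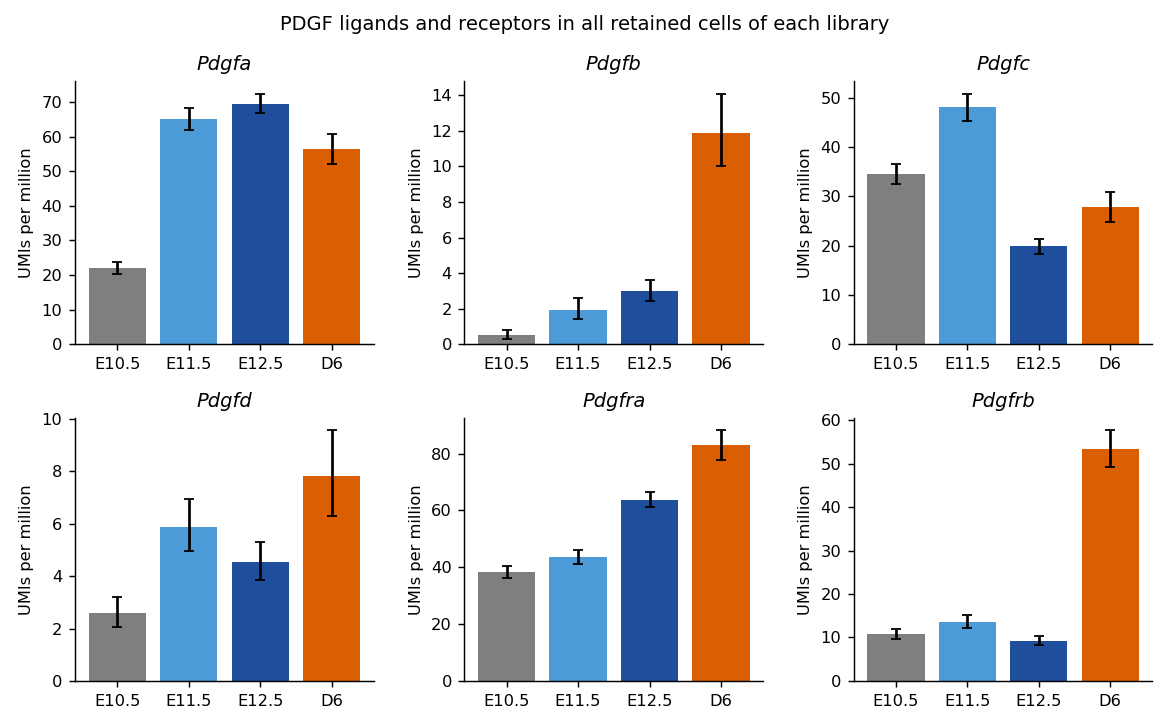
Level of each PDGF gene in each library, in CPM on linear axes that start at 0 and differ between genes; each bar is 1 library and error bars are 95% exact Poisson intervals of counting error. Pdgfb ran from 0.492 at E10.5 to 11.9 at D6 and Pdgfrb from 9.22 at E12.5 to 53.4 at D6, and Pdgfa was lowest at E10.5 with 22.0.

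Between E10.5 and E11.5, 3 of the 6 genes were past 2-fold, all higher at E11.5, where 23.6% of the 13197 genes compared were past 2-fold in either direction. These were Pdgfa, Pdgfb at 3.96-fold (2.21 to 7.47), and Pdgfd at 2.28-fold (1.73 to 3.02). Between these libraries stage cannot be told apart from dissection, since the dorsal mesenchyme was included at E10.5. Cells with a UMI of the myogenic genes Myf5 or Myog were 7.06% at E10.5 and 0.0476% at E11.5, and Nr5a1-positive cells 1.88% and 34.7%. Leaving out cells with a UMI of the germ cell genes Dazl or Dppa3, an alternative chosen after the data were seen, lowered the log2 ratio of Pdgfa from 1.56 to 1.25. Between E11.5 and E12.5, Pdgfc alone was past 2-fold, 1 of 6 against 7.16% of 13190 genes. Between D6 and E12.5, Pdgfb, with an interval of 3.08-fold to 5.21-fold, and Pdgfrb at 5.80-fold (5.06 to 6.65) were past 2-fold, both higher at D6. That is 2 of 6 against 38.7% of 13196 genes, so the count of members does not set the family apart. Of all genes past 2-fold in this comparison, 72.0% were higher at D6 with total UMIs and 44.8% with TMM factors, which lowered every log2 ratio by 0.47 and took the median of all genes from 0.32 to -0.15. Under TMM the log2 ratio of Pdgfrb was 2.06 and that of Pdgfb 1.52, and the ratio of Pdgfra went from 0.38 to -0.09, so that the direction of Pdgfra between D6 and E12.5 depended on the scaling. With the germ marker cells left out it was -0.03.

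Shares of positive cells followed depth as well as level. Pdgfra had a UMI in 23.9%, 30.1%, 39.9%, and 26.4% of cells from E10.5 to D6. After every cell was thinned to 2000 UMIs, with 6, 209, 0, and 16 shallower cells left out, the shares were 7.28%, 8.93%, 12.1%, and 14.3%, so that D6 took the highest place, as it did by level. The thinned shares of Pdgfa were 3.47%, 9.67%, 11.8%, and 7.76%, and those of Pdgfrb 1.88%, 3.12%, 1.95%, and 9.21%. For background, cells in which globin genes held at least 10% of UMIs, the erythroid cells of the E10.5 library, gave 0 UMIs of all 6 genes in 51 cells of median depth 17203, which allows a share of up to 5.88% for each. At E11.5 such cells numbered 21, with a median depth of 15568, and 1 cell had a UMI of Pdgfra and 1 of Pdgfrb, or 4.76% for each. Germ cells with Dazl and either Dppa3 or Ddx4 had a UMI of Pdgfra in 1.71% of 175 cells at E11.5 and 2.24% of 447 cells at E12.5, at median depths of 17837 and 18639.

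To place ligands and receptors in cell types, cells were gated by single markers. The 4 gates were Sox9 or Amh for supporting cells, the lineage of Sertoli cells, Nr2f2 with Tcf21 for interstitial cells, Upk3b for the coelomic epithelium, and Cdh5 for endothelium. The Sox9 or Amh gate held 790, 786, 994, and 321 cells from E10.5 to D6, and the interstitial gate 295, 832, 1164, and 880. The coelomic gate held 311, 308, 257, and 186, and the endothelial gate 53, 51, 59, and 21. By the summed level of their cells, the gates went with their marker lists, with 1 exception. At E10.5 the 12 supporting markers summed to 221 CPM in the Sox9 or Amh gate, against E11.5 with 2907, E12.5 with 5998, and D6 with 1123, and Dhh, Hsd17b3, and Sry were at 0. Markers of sclerotome, the Sox9-expressing precursor of vertebral cartilage, summed to 343 CPM in that gate at E10.5 against 157 in all cells, so the E10.5 group is called here Sox9 or Amh positive and not supporting cells. In the later libraries the name supporting gate stands for the gate as a whole. From E11.5 to D6, its cells without Amh numbered 567, 353, and 239 and held Dhh at 44.9, 8.42, and 3.68 CPM. Cells with 5 or more Amh UMIs held Dhh at 195, 294, and 94.1 CPM. The cells without Amh are therefore not called supporting cells by themselves. The gates overlapped. Of the coelomic gate, 13.8% of cells at E10.5 and 75.3% to 77.0% in the other libraries also passed the interstitial gate, as did 7.59%, 28.4%, 26.5%, and 32.4% of the Sox9 or Amh gate. Of the interstitial gate, 20.3%, 26.8%, 22.6%, and 11.8% of cells also passed the Sox9 or Amh gate. The coelomic gate took in 14.6%, 28.1%, 17.0%, and 15.9% of them. Cells of the interstitial gate alone numbered 200, 441, 743, and 660.

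Pdgfa was highest in the supporting gate from E11.5 on. In the Sox9 or Amh gate it had 20.5, 89.1 (83.3 to 95.1), 105 (99.1 to 111), and 117 CPM (102 to 133). In the interstitial gate it had 18.1, 17.6 (15.2 to 20.2), 41.5 (38.2 to 45.2), and 39.8 CPM (34.4 to 45.8). The ligand thus differed little between these gates at E10.5, and afterwards by 5.07-fold (4.34 to 5.94), 2.52-fold (2.28 to 2.80), and 2.93-fold (2.41 to 3.57). The drop in the ratio at E12.5 came with a 2.36-fold (2.01 to 2.80) higher Pdgfa level in the interstitial gate at E12.5 than at E11.5. The thinned share of Pdgfa-positive cells in the Sox9 or Amh gate was 2.78%, 14.6%, 18.5%, and 13.4%. In the interstitial gate it was 2.71%, 2.69%, 6.70%, and 6.16%.

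Pdgfra had the opposite placement. The interstitial gate held it at 36.9, 69.7 (64.9 to 74.7), 119 (113 to 125), and 113 CPM (104 to 123), against 41.6, 33.6, 49.0, and 75.4 in the Sox9 or Amh gate. It was 2.08-fold (1.82 to 2.37) lower in the supporting gate at E11.5 and 2.42-fold (2.20 to 2.67) lower at E12.5, and 1.51-fold lower at D6, within the threshold. Pdgfrb went the same way, with 21.2 (18.5 to 24.0), 15.7 (13.7 to 18.0), and 58.8 CPM (52.2 to 66.0) in the interstitial gate of the later libraries against 4.96, 5.08, and 37.2 in the supporting gate, and at E10.5 the gates differed by 1.12-fold. The interstitial level of Pdgfra at D6 was 1.05-fold below that at E12.5, an interval of the log2 ratio from -0.21 to 0.08, whereas that of Pdgfrb was 3.74-fold (3.12 to 4.49) higher. The summed interstitial markers in this gate were also higher at D6, at 3393 CPM against 1223 at E12.5. Their part in the Pdgfrb level was not tested.

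**Figure D2:**
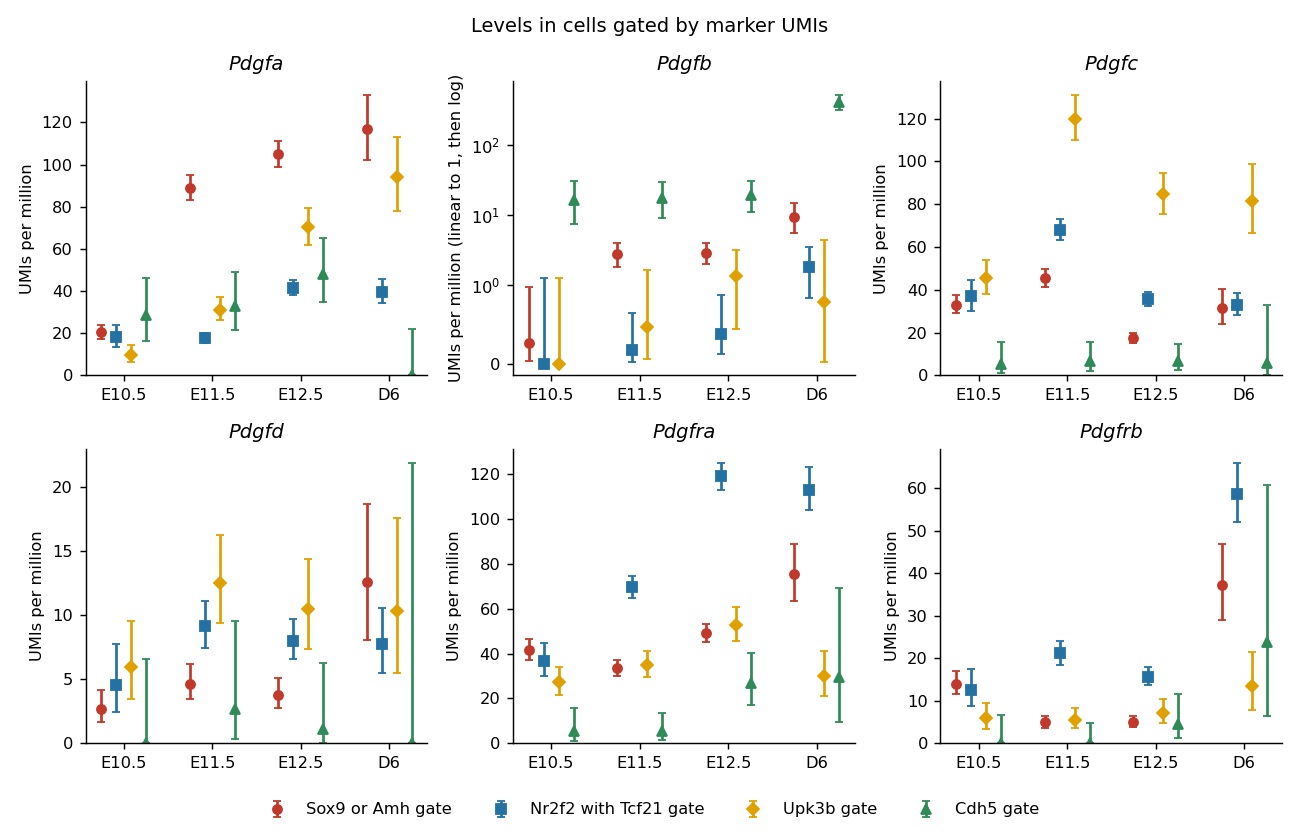
Level of each PDGF gene in the 4 marker gates of each library, in CPM on linear axes, except Pdgfb, whose axis is linear to 1 and then log; points are sums over the gated cells of 1 library and error bars 95% exact Poisson intervals of counting error. Pdgfa lay highest in the Sox9 or Amh gate from E11.5 on, Pdgfra highest in the Nr2f2 with Tcf21 gate from E11.5 on, Pdgfc in all libraries in the Upk3b gate, and Pdgfb in the Cdh5 gate.

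Members past 2-fold between the Sox9 or Amh gate and the interstitial gate are set here against all genes. At E10.5, where the Sox9 or Amh gate is not one of supporting cells, 0 of 4 members tested were past 2-fold. Of 9504 genes, 3.23% were. At E11.5 there were 3 of 5, Pdgfa higher and Pdgfra and Pdgfrb lower in the supporting gate, where 12.3% of 11212 genes were past 2-fold. At E12.5 there were 5 of 5, with Pdgfc at 2.06-fold and Pdgfd at 2.10-fold also lower, where 13.7% of 11467 genes were. At D6 there was 1 of 5, Pdgfa, where 4.79% of 9856 genes were. Pdgfb was under 50 UMIs in every library, with 28 UMIs in the supporting gate against 2 in the interstitial gate at E11.5, 34 against 5 at E12.5, and 18 against 9 at D6. Of 13 alternatives of processing or gating, Pdgfa stayed past 2-fold in 13 at E11.5, E12.5, and D6. Pdgfra did in 11 at E11.5, the exceptions being TMM factors and all deposited barcodes, and in 13 at E12.5. Pdgfd at E12.5 did in 8 and Pdgfc in 10, so these 2 ligands lay near the threshold.

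**Figure D3:**
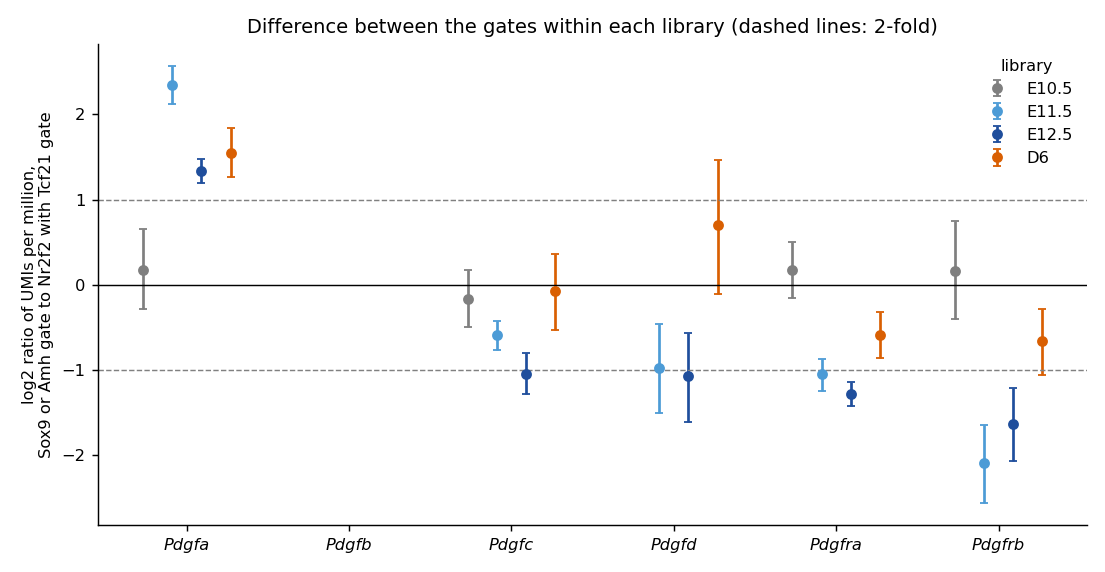
Log2 ratio of the Sox9 or Amh gate to the Nr2f2 with Tcf21 gate for each PDGF gene in each library, with 95% exact intervals of counting error; dashed lines mark 2-fold, and genes under 50 UMIs in a library, among them Pdgfb, have no point. Pdgfa was on the higher side at E11.5, E12.5, and D6, and Pdgfra and Pdgfrb on the lower side in these libraries.

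From E11.5 on, the contrasts of Pdgfa, Pdgfra, and Pdgfrb were larger with cells of more than 1 gate left out. Pdgfa was then at 22.0, 129, 127, and 154 CPM in the Sox9 or Amh gate from E10.5 to D6 against 21.3, 12.0, 33.5, and 21.5 in the interstitial gate. Pdgfra was at 42.5, 19.9, 22.4, and 63.7 against 39.9, 91.6, 138, and 136, and Pdgfrb at 14.5, 1.12, 1.83, and 26.3 against 11.4, 33.7, 19.9, and 71.8. Pdgfc did not follow, with 32.1, 27.9, 10.1, and 28.0 against 37.3, 36.2, 20.8, and 18.8. Its D6 values rested on 9.97% and 19.3% of 331 Pdgfc UMIs, and without an interval of their ratio the order is left undecided. This step also left out the 75.3% of coelomic gate cells at D6 that passed the interstitial gate. Their part in the Pdgfc levels was not tested. At D6 the receptors in the Sox9 or Amh gate, most of whose cells had no Amh UMI, remained above their levels at E11.5 and E12.5.

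The Sox9 or Amh gate joined cells of different receptor content, which Amh, the anti-Müllerian hormone made by Sertoli cells, separated. This split was chosen after the data were seen. There were 219, 641, and 82 Amh-positive cells from E11.5 to D6, with only 6 at E10.5. Pdgfa was at 147 CPM (133 to 162), 130.3 (122 to 139), and 293 in these cells, against 65.4, 58.0, and 44.9 in Sox9-positive cells without Amh. Pdgfra was at 14.1, 18.0, and 32.6 CPM in the Amh-positive cells against 41.5, 106, and 92.8, and Pdgfrb at 1.37, 2.35, and 7.25 against 6.43, 10.1, and 49.3. Amh-positive cells were therefore higher in the ligand and lower in both receptors than Amh-negative cells of the same gate in all 3 libraries. Between D6 and E12.5, Pdgfa in Amh-positive cells was 2.25-fold (1.90 to 2.66) higher at D6. Like the other ratios of gated cells between these libraries, this one used total UMIs, and TMM scaling was not applied. Depth also differed, with medians of 6591 UMIs at D6 and 10775 at E12.5 in Amh-positive cells without Dazl or Dppa3.

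Within the gate, Pdgfa, Pdgfra, and Pdgfc were graded by Amh count at E12.5. There, cells with 0, 1, 2 to 4, and 5 or more Amh UMIs numbered 353, 102, 117, and 422, with similar median depths from 10476 to 12173 UMIs. Across these bins Pdgfa ran 58.0, 75.3, 112, and 150.3 CPM, Pdgfra ran 106, 63.6, 19.1, and 5.22, and Pdgfc ran 34.2, 20.5, 10.7, and 4.22. The order of the bins was thus rising for Pdgfa and falling for Pdgfra and Pdgfc. At D6, Pdgfa ran 44.9, 229.9, 284, and 357 CPM over 239, 29, 25, and 28 cells, and median depth also rose, from 4990.0 to 7126 UMIs. At E11.5 Pdgfa ran 65.4, 137, 161, and 136, so that the step lay between 0 and 1 Amh UMI. Pdgfra did not fall at every step in these libraries, with 41.5, 11.8, 18.9, and 6.58 CPM at E11.5 and 92.8, 40.2, 22.7, and 34.7 at D6, and was highest in cells without Amh in each. Pdgfc ran 56.3, 32.7, 8.66, and 6.58 at E11.5 and 34.6, 40.2, 22.7, and 9.91 at D6.

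**Figure D4:**
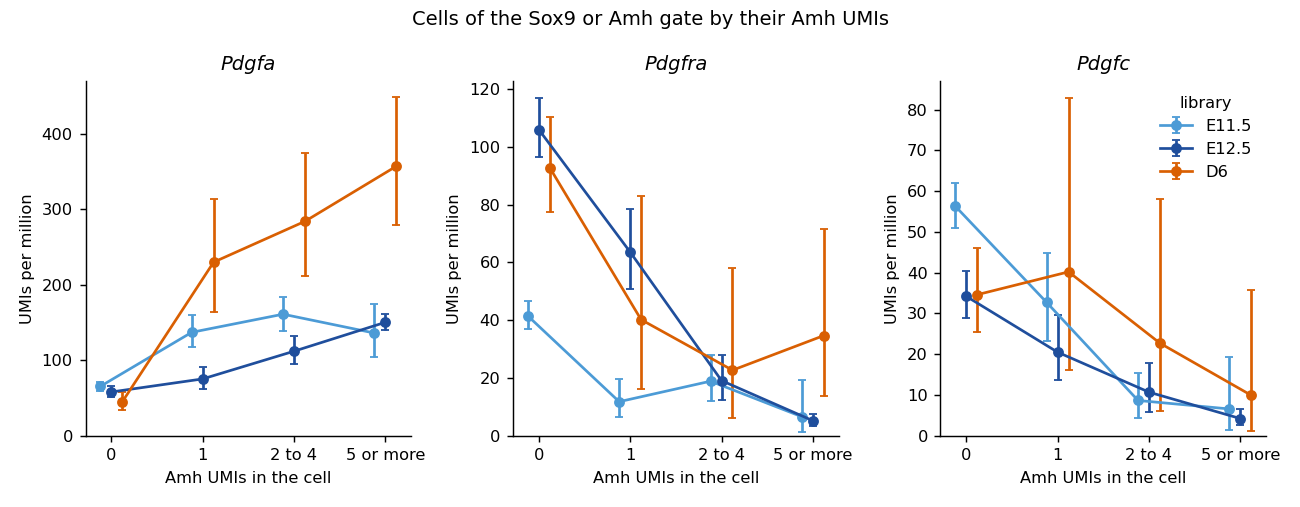
Levels of Pdgfa, Pdgfra, and Pdgfc in cells of the Sox9 or Amh gate, grouped by their number of Amh UMIs, in CPM with 95% exact Poisson intervals, for E11.5, E12.5, and D6. At E12.5 Pdgfa rose from 58.0 to 150.3 and Pdgfra fell from 106 to 5.22 from 0 to 5 or more Amh UMIs.

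Pdgfc was the most abundant ligand of the coelomic gate in vivo. Upk3b-positive cells held it at 45.5 (38.1 to 54.1), 119.9 (109.8 to 131), 84.8 (75.6 to 94.8), and 81.5 CPM (66.5 to 98.9). Relative to all other cells of the library these levels were 1.36-fold (1.13 to 1.64), 3.65-fold (3.25 to 4.10), 6.98-fold (5.98 to 8.14), and 3.81-fold (2.99 to 4.82) higher. The thinned share of Pdgfc-positive cells in the gate was 7.42%, 23.7%, 16.0%, and 12.4%. Pdgfa in the same gate was at 9.81, 31.2, 70.2, and 94.2 CPM (78.0 to 113 at D6), so that its level was higher in each later library. At D6 it lay above Pdgfc, but the intervals of the 2 ligands overlapped. Cells with a UMI of Pax8, a marker of the supporting-like lineage and of nephric tissue, held Pdgfc at 20.0, 133, 78.3, and 89.3 CPM in 95, 67, 44, and 97 cells, and Pdgfa at 87.9, 102, 73.0, and 89.3.

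Pdgfb was higher in the Cdh5 gate than in the other gates of each library. It had 16.1 (7.34 to 30.5), 17.2 (9.18 to 29.5), 19.1 (11.1 to 30.5), and 398 CPM (308 to 505). The D6 value came from 67 UMIs in 13 of 21 cells. The intervals of the in vivo levels overlapped, and D6 was 20.9-fold (12.1 to 37.9) above E12.5. This fold depended on the limits on genes and mitochondrial UMIs. Without them, an alternative added after the data were seen, 98, 75, 101, and 28 Cdh5-positive barcodes held Pdgfb at 22.6 (15.7 to 31.6), 45.4 (35.9 to 56.6), 46.4 (38.5 to 55.5), and 411 CPM (344 to 486), and D6 was 8.85-fold (6.87 to 11.4) above E12.5. Pdgfa, at 28.6, 33.1, and 48.2 CPM in the gated cells in vivo, was above Pdgfb there, and at D6 it was at 0 in 21 cells. Without the limits Pdgfa was at 32.0, 36.2, 25.5, and 33.5 CPM, below Pdgfb from E11.5 on. Cdh5-positive cells with at least 3 of the 8 endothelial markers, a group chosen after the data were seen, numbered 47, 37, 32, and 14 and held Pdgfb at 17.6, 22.0, 33.4, and 523 CPM. Pdgfra was at 0 in this group in all 4 libraries, which allows up to 5.88, 5.08, 5.90, and 23.4 CPM. The Cdh5 gate itself held it at 26.9 CPM at E12.5 and, from 5 UMIs in 3 cells, at 29.7 at D6. Pdgfa was at 31.3, 18.6, 21.6, and 0 CPM in the stricter group, and the 0 of 14 cells at D6 allows a level of up to 23.4 CPM.

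Outside the endothelium, Pdgfb at D6 was found in cells with a steroidogenic gene and in others. Of the 69 cells with a Pdgfb UMI, 13 were in the Cdh5 gate, or 18.8% against 0.919% of all D6 cells. Any endothelial marker was found in 21, or 30.4% against 21.2%. A UMI of Cyp11a1, the side-chain cleavage enzyme of steroidogenesis, was found in 37, or 53.6% against 13.0%. Nr5a1 was positive in 56, or 81.2% against 29.1%. Median depth was 6139 UMIs in Cyp11a1-positive cells without Scrublet doublets and 4607 in all D6 cells. Pdgfb was at 30.5 CPM (23.4 to 39.2) in the 298 Cyp11a1-positive cells, at 27.7 in the 263 of them without any endothelial marker, and at 31.5 without Scrublet doublets. In vivo, 2 and 3 Pdgfb UMIs were found in Cyp11a1-positive cells at E11.5 and E12.5, or 1.59 and 5.57 CPM in 103 and 44 cells. Of these cells 23 and 31 had Amh. Those without Amh held Pdgfb at 1.04 CPM (0.0264 to 5.81) at E11.5 and 10.9 (1.31 to 39.2) at E12.5, against 30.0 (22.5 to 39.1) at D6. At D6, Amh-positive cells held Pdgfb at 19.9 CPM and Nr5a1-positive cells without Cyp11a1 at 12.1. At E11.5, 9 of the 41 Pdgfb-positive cells were in the Cdh5 gate, or 22.0% against 2.43% of all cells. The Sox9 or Amh gate held 25 of them, or 61.0% against 37.4%, and 16 were Amh-positive, or 39.0% against 10.4%. Most Pdgfb-positive cells at E12.5 held germ cell genes, since 51 of its 88 positive cells had a UMI of Dazl or Dppa3, or 58.0% against 20.9% of all cells, at a level of 5.28 CPM.

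Germ cells also held Pdgfa, and none of the 4 gates was defined for them. Cells with Dazl or Dppa3 were in no gate in 189 of 281 cases at E11.5 and 429 of 577 at E12.5. The others passed a gate and are part of the gated levels. In cells with Dazl and either Dppa3 or Ddx4, a group chosen after the data were seen, Pdgfa was at 171 CPM (156 to 186) at E11.5 and 74.7 (69.1 to 80.8) at E12.5, with a UMI in 82.9% and 69.4% of cells, and Pdgfra was at 1.04 and 1.75 CPM. At E10.5, where such cells numbered 6, myogenic cells with Myf5 or Myog held Pdgfa at 93.5 CPM (82.2 to 106) and Pdgfc at 83.3 in 271 cells. Pdgfra was at 11.7 CPM in these cells and at 54.4 in the 659 cells with Foxf1, a gene of splanchnic mesenchyme. Cells with at least 2 of the mural genes Rgs5, Notch3, Cspg4, Kcnj8, and Abcc9 numbered 32, 54, 48, and 160 from E10.5 to D6. They held Pdgfrb at 21.1, 49.4, 43.6, and 154 CPM (131 to 181). A Pdgfrb UMI was found in 5, 23, 16, and 69 of them and a Pdgfra UMI in 10, 28, 30, and 54. The group is therefore named by its genes and not called mural cells.

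The reporter gene of the enrichment, Nr5a1, divided the members at D6. Pdgfa was 3.51-fold (2.99 to 4.13) higher in the 664 Nr5a1-positive cells than in the others, at 105 against 30.0 CPM. Pdgfra was 3.06-fold (2.56 to 3.67) lower, at 35.5 against 108, and Pdgfrb 5.70-fold (4.32 to 7.66) lower, at 13.2 against 75.1. At E12.5 Pdgfa was 1.44-fold (1.32 to 1.56) higher in Nr5a1-positive cells and Pdgfra differed by 1.01-fold, with an interval of the log2 ratio from -0.14 to 0.12, whereas Pdgfrb was 1.73-fold (1.31 to 2.30) lower. At E11.5 Pdgfa was 1.56-fold (1.41 to 1.73) higher in these cells, Pdgfra differed by 1.10-fold, with an interval of the log2 ratio from -0.32 to 0.04, and Pdgfrb was 3.52-fold (2.62 to 4.80) lower. Pdgfrb was thus lower in Nr5a1-positive cells in all 3 libraries.

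Summed receptors exceeded summed ligands in the interstitial gate at E12.5 and D6. Receptor UMIs per ligand UMI, summed over the 2 receptors and 4 ligands, were 0.830, 0.957, 1.57, and 2.09 in this gate, and at E10.5 and E11.5 the interval of the log2 ratio of ligand to receptor, from -0.06 to 0.60 and from -0.06 to 0.19, included equal levels. In the Sox9 or Amh gate they were 0.983, 0.272, 0.420, and 0.662, and in the coelomic gate 0.543, 0.247, 0.360, and 0.233. With cells of more than 1 gate left out, the interstitial gate had 0.832, 2.29, 2.54, and 4.20, with receptors above ligands from E11.5 on, and the Sox9 or Amh gate had 1.01 and then 0.129 in the first 2 stages and 0.424 in D6, with 143 CPM of ligand against 24.2 of receptor at E12.5. Amh-positive cells had 0.0896, 0.141, and 0.117 from E11.5 to D6. The summed ligand level in these cells was 172, 144, and 341 CPM against a summed receptor level of 15.4, 20.4, and 39.8. The other cells of the gate, Sox9-positive without Amh, had 0.370, 1.15, and 1.41 receptor UMIs per ligand UMI. Receptors thus exceeded ligands in them at E12.5 and D6. The intervals of their log2 ratio of ligand to receptor were from -0.39 to -0.01 and from -0.82 to -0.17. In the endothelial gate the ratios were 0.107, 0.0889, 0.418, and 0.132.

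**Figure D5:**
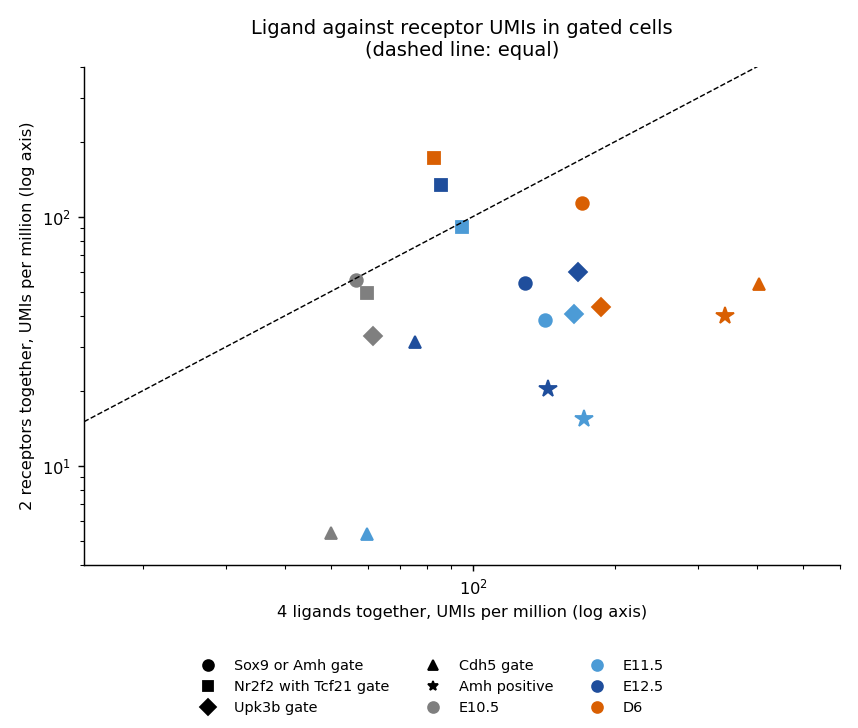
Summed level of the 4 PDGF ligands against that of the 2 receptors in each gate and in Amh-positive cells, in CPM, both axes on a log scale; shapes are gates, colors are libraries, and the dashed line marks equal levels. The interstitial gate moved from 59.6 ligand and 49.5 receptor at E10.5 to 82.5 and 172 at D6. The Sox9 or Amh gate as a whole lay on the ligand side at E11.5, E12.5, and D6. Its cells without Amh, not shown by themselves, did so at E11.5 only.

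In single cells, the number with both the A chain and its receptor lay below the product of their shares in all 4 libraries. After thinning to 2000 UMIs, 5, 2, 22, and 10 cells from E10.5 to D6 had a UMI of each, against 9.69, 16.3, 39.4, and 25.1 from the product. Pdgfra was found in 3.76%, 1.09%, 6.77%, and 5.68% of Pdgfa-positive cells and in 7.41%, 9.77%, 12.8%, and 15.0% of the others. Pdgfc and Pdgfra, which bind each other as protein, were found together in 11, 8, 9, and 8 cells against 18.3, 14.6, 13.1, and 15.4. The receptors went the other way, with Pdgfra and Pdgfrb together in 6, 10, 14, and 41 cells against 5.24, 5.27, 6.54, and 29.8. These counts are descriptions of cells that share a library.

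The 47 other genes of a PDGF pathway list, made of processing enzymes, co-receptors, transducers, regulators, and related ligands and receptors, were compared between the same gates. At E10.5 none of 33 were past 2-fold, against 3.23% of all genes compared. At E11.5, of 42, 4 were higher and 3 lower in the supporting gate, against 12.3% of all genes past 2-fold in either direction. At E12.5, of 42, 6 were higher and 4 lower, against 13.7%. At D6, of 38, 2 were higher and 1 lower, against 4.79%. The median log2 ratios of the pathway genes were 0.01, 0.09, -0.04, and 0.08. Kitl, the ligand of the related receptor KIT, was at 131 CPM in the supporting gate against 26.0 in the interstitial gate at E11.5, then 143 against 14.0, and 157 against 58.0. Pcsk6, a proprotein convertase, was at 40.4 against 13.4, 36.4 against 13.8, and 30.4 against 13.7. On the interstitial side were the VEGF family members Pgf, with log2 ratios of -1.51, -1.16, and -1.51, Vegfc, with -1.68 and -1.22 at E11.5 and E12.5, and Vegfd, with -1.76 and -1.18. The scaffold Gab1 was higher in the supporting gate at E11.5 and E12.5, by 1.25 and 1.02 on the log2 scale, and by 0.19 at D6, within the threshold.

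The genes whose levels were most like those of each member were ranked by Pearson correlation of log2(CPM + 10) over 14 groups of library and gate, which share libraries, among 10216 genes. Pdgfa was nearest to Elmo1 (r = 0.94), Hk1 (0.94), and Zc3hav1 (0.93), and Pdgfc to Smim3 (0.88), Zfp930 (0.88), and Sertad1 (0.86). Pdgfra was nearest to Frem1, Akap2, and St8sia2, each at 0.93, and Pdgfrb to Tril (0.98), Arhgap31 (0.96), and Rhoj (0.96). Between members, Pdgfra and Pdgfrb had a correlation of 0.83 and Pdgfa and Pdgfra of -0.36. Pdgfb and Pdgfd, with 308 and 477 UMIs in all, were under the 500 UMIs asked of the other genes, and their likeness is not described.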

How the data were processed

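The authors deposited, for each of the 4 libraries, a matrix of UMI counts per gene and cell barcode that passed Cell Ranger, with no normalization. The submitters' processing notes name Cell Ranger 3.0.2 and mm10, whereas the file headers name version 6.0.0. Reads were counted before deposit, so the reads themselves and their alignment were not analysed here. Cells were retained by the study's limits: E10.5 over 1000 and under 4000 genes with a UMI and under 10% mitochondrial UMIs, E11.5 over 500, under 5000, and under 20%, E12.5 over 2000, under 5000, and under 8%, and D6 over 1000, under 4000, and under 12%.

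UMIs were summed over the cells of a library or gate and divided by all UMIs of these cells. Intervals at 95% are exact Poisson for sums, Clopper-Pearson for shares, and conditional binomial for ratios. A level or share of 0 is given with the value that 3 counts would reach. For matched shares, each cell was thinned at random to 2000 UMIs. Scrublet, run through scanpy 1.11.5, scored each cell, and the cells with the highest scores were taken as doublets. Their number was set beforehand by an assumed rate of 0.8% per 1000 cells, with ties included, and not by the scores. These were 132, 35, 64, and 46 cells from E10.5 to D6, which were left in except in 1 alternative. Ratios were computed for all genes with at least 50 UMIs in the compared groups. On simulated counts for D6 against E12.5, all of the changed genes with a log2 ratio of 2 were past 2-fold (100.0%), as were 99.0% of those with 1.5, and 0.208% of unchanged genes. These counts were Poisson draws from the pooled profile of both libraries. They cover counting error only, and not differences of kit, cell type, or composition. Python 3.11.15, numpy 2.4.6, scipy 1.17.1, pandas 2.3.3, matplotlib 3.10.9, R 4.3.3, edgeR 4.0.16 (TMM), and DESeq2 1.42.0 (median of ratios) were used.

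The members, as a family, and the marker and pathway lists were chosen with earlier results of these data known. Genes named are the members, the markers, pathway genes past 2-fold between gates in at least 2 libraries, up to 8, and the 3 genes most like each member. The alternatives were all barcodes, common limits of over 1000 and under 5000 genes and under 10% mitochondrial UMIs, no doublets, and TMM. Further ones were median of ratios, totals without mitochondrial and globin genes, means over cells, thinning, and no minimum count. For the gates they were exclusive gates, gates at 2 UMIs, gates called after thinning, and Nr5a1 or Gata4 asked of the Sox9 or Amh gate only. Groups of germ cells, Amh-positive cells, and strict endothelial cells, and the Cdh5 gate without limits, were added after the data were seen. So were the groups of Cyp11a1-positive cells split by Amh or Star.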

Additional observations from a re-analysis of the deposited data

Results flagged for a closer look

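Barcodes outside the gene and mitochondrial limits enter the comparisons above only in the alternatives that drop or change these limits. They held Pdgfb at higher levels than the retained cells of the same library. The level was 3.51 CPM (2.31 to 5.11) against 0.492 at E10.5, then 10.0 against 1.95, 14.0 against 2.98, and 46.1 against 11.9 in the later libraries, from 27, 79, 113, and 95 UMIs in 636, 348, 412, and 156 barcodes. These levels are listed because their intervals lay wholly above those of the retained cells and they were at least 2-fold higher. Barcodes at or above the upper gene limit numbered 352, 230, 205, and 119, and held 27, 79, 108, and 95 of these UMIs. Cdh5-positive barcodes among those outside the limits numbered 45, 24, 42, and 7 and held 25, 66, 103, and 68. The endothelial markers summed to 409, 364, 545, and 356 CPM outside the limits against 99.0, 146, 97.2, and 102 inside, and the megakaryocyte markers to 194, 3.29, 62.3, and 17.5 against 9.69, 7.63, 36.9, and 5.21. With these barcodes included, the fold of Pdgfb in Cdh5-positive cells between D6 and E12.5 was 8.85 in place of 20.9.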

How the results depend on the processing

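No paired analysis was possible because each condition had 1 library. The counts of members past 2-fold between libraries were within 1.5 times of those given under the 9 alternatives of filtering, scaling, and depth, and no direction past the threshold turned. Thinning left Pdgfb with under 50 UMIs, so that it was not compared at E11.5 against E10.5 or at D6 against E12.5, where Pdgfd was then past 2-fold. Between the Sox9 or Amh gate and the interstitial gate, the count at E10.5 went from 0 to 1 with Nr5a1 or Gata4 asked of the former only. Pdgfa was then lower in the Sox9 or Amh gate. At E11.5 the count went from 3 to 5 with gates at 2 UMIs and with the Amh gate. At E12.5 it went from 5 to 3 with means over cells and with thinning. At D6 it went from 1 to 2 with all barcodes, no minimum count, Nr5a1 or Gata4, or gates called after thinning, and to 3 with exclusive gates, gates at 2 UMIs, or the Amh gate. At E12.5 Pdgfc had a log2 ratio of -0.93 with germ cells left out and was then within the threshold. Members whose highest share lay in the library of their highest level numbered 3, and 6 after thinning. With median of ratios in place of total UMIs, 43.2% of genes past 2-fold were higher at D6 than at E12.5. The Amh gate gave no value at E10.5, with 6 cells. The endothelial gate at D6 held 21 cells, so that its levels rest on few cells.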
